A study of Mus musculus with 8 samples.

Results

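The genes described are 37 transcripts of skeletal muscle, chosen by their measured levels in the same 8 tumours, in which they stood out in 1 propranolol tumour and 1 control tumour. Their levels across these tumours are therefore a description, and nothing is supported with them. The deposited table of 14133 genes holds 25 of the 37. The other 12 (Tnnc2, Mb, Tnnt1, Jph1, Tcap, Myoz1, Smpx, Cacna1s, Ckmt2, Trim63, Myh7 and Myl2) are not analysed here. Of the 25, 12 are genes of fast fibres, 2 (Tnni1 and Mybpc1) are genes of slow fibres, and 11 are used by both fibre types.

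The samples are subcutaneous tumours of CT26, a mouse colon carcinoma cell line, grown in male mice that the labels call BABL/C, and every sample carries the genotype label WT. The 4 propranolol tumours came from mice injected daily into the peritoneum with propranolol, which blocks beta-adrenergic receptors, from a tumour size of 70 to 100 mm3. The 4 control tumours came from mice treated with PBS. Tumours were flash frozen, and bulk RNA was extracted with Trizol and sequenced. The design text speaks of duplicates while the titles number 4 tumours in each group. The labels do not tie tumours to animals, and a p-value here reflects the scatter of these 8 samples, which may be technical. Because the tumours were measured in bulk, fewer cells of a type and less RNA per cell cannot be told apart. A CT26 tumour under the skin is a graft of 1 cell line, and muscle is no labelled tissue of any sample.

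Skeletal muscle fibres contract when myosin of the thick filament pulls on actin of the thin filament, a step that calcium switches on through the troponin complex. Fast and slow fibres carry different genes for many of these proteins: Myh4, Myh1 and Myh2 encode the myosin heavy chains of fast type IIb, IIx and IIa fibres, while Myh7 encodes that of slow fibres. Calcium is released from the sarcoplasmic reticulum and pumped back into it, and creatine kinase and glycogen breakdown supply energy for contraction.

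Library totals were 15483409 to 17511937 counts, so a count of 0 allows up to 0.171 to 0.194 CPM (counts scaled to the library size) at 3 counts per library. Intervals given below are exact at 95% and cover counting error only. On the carcinoma list, Krt18 had 102 to 328, Krt8 2 to 244 and Cdh1 10 to 54 counts in the 8 tumours. The highest Krt8 was in control tumour 4, and Epcam is not analysed here. Vim, on the same list but not an epithelial gene, had 88323 to 104389 counts. Mitochondrially encoded transcripts took 1.31% to 2.11% of counts in propranolol tumours and 1.78% to 2.40% in control tumours.

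The DNA around the start of 5 members is shown because these genes span the observed behaviours. Acta1, Ckm and Myh4 were at or near 0 in several tumours. Myh2 was the heavy chain with the largest ratio of propranolol tumour 1 to control tumour 4, and Eno3 was abundant in every tumour. The sequences run from 250 bases before to 50 bases after the RefSeq start of each gene (build GRCm38.p6), 5′ to 3′ on the gene's strand. They cover chr8:123894726-123895025 (minus strand), chr7:19410844-19411143, chr11:67237562-67237861, chr11:67170777-67171076 and chr11:70656926-70657225 (plus strand) in the order printed. Capitals mark matches on either strand to the letters CAGCTG (the E-box core read by myogenic factors such as MyoD), CATTCC (the M-CAT core), TATAAA (the TATA box), and to the MEF2 motif and the CArG box.
Acta1: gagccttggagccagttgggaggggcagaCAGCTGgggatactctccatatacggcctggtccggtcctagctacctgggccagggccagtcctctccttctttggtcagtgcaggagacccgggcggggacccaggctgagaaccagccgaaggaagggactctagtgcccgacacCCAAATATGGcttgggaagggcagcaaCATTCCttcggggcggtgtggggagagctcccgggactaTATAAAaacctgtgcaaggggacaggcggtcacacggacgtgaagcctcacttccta
Ckm: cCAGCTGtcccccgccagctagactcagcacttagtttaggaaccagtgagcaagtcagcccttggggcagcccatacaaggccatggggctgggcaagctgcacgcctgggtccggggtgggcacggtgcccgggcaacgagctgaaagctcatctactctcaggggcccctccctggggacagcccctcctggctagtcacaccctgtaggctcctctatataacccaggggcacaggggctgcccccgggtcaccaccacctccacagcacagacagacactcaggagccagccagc
Myh4: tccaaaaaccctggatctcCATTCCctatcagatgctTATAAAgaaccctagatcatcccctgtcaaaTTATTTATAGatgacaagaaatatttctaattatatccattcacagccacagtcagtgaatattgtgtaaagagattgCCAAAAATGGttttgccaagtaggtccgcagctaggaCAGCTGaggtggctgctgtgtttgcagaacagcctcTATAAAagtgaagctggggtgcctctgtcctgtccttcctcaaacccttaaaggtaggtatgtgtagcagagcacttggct
Myh2: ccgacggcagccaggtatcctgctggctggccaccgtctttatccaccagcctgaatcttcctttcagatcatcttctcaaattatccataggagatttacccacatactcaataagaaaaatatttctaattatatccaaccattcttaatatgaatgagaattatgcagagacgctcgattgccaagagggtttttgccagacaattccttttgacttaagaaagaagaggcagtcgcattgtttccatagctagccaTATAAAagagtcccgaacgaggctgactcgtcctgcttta
Eno3: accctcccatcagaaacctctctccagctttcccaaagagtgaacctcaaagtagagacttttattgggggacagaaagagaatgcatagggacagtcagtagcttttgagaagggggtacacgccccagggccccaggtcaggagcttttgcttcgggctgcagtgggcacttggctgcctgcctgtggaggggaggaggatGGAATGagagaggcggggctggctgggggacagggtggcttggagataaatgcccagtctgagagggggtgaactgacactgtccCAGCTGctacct

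Of the 25 members, 21 had a promoter in the RefSeq table, and each motif's share is given beside that over all 32851 promoters of the same length. Each member counts with the first start listed for it, whereas the 32851 hold every start listed. CAGCTG occurred in 13 of the 21 (61.9%, against 16.3% of all promoters), and CATTCC in 7 (33.3%, against 14.7%). TATAAA occurred in 5 (23.8%, against 13.6%), and the MEF2 motif in 5 (23.8%, against 3.19%), namely Xirp2, Ttn, Myh1, Myh4 and Pvalb. The CArG box occurred in 2, Acta1 and Myh4 (9.52%, against 1.63%). In the Myh4 window 1 TATAAA match on the opposite strand lies inside the MEF2 motif. Eno3, the member most even across tumours, also had a CAGCTG and a CATTCC. Some matches lie after the RefSeq start, with the Myh2 TATAAA at bases 11 to 16 and the Eno3 CAGCTG at bases 39 to 44. The Acta1 TATAAA lies at -7 to -2. These are matches of letters, not sites shown to be used.

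Propranolol tumour 1 held the second highest level of 20 of the 25 members, and control tumour 4 the highest of all 25. Genes in the table exceed 1 CPM in 2 or more libraries. Myh1, Myh2, Actn2, Actn3 and Xirp2 reached at most 0.943 CPM in the other 6 tumours, so their entry to the table fixed their 2 highest tumours. Together the 25 members took 0.0231% of counts in propranolol tumour 1 (interval 0.0224% to 0.0239%), and 0.0115%, 0.00988% and 0.0119% in propranolol tumours 2, 3 and 4. In control tumours 1, 2 and 3 they took 0.0105%, 0.0103% and 0.0144%, and in control tumour 4 0.144% (0.142% to 0.145%). Eno3 made up most of that sum outside propranolol tumour 1 and control tumour 4. Without it, the summed level was 161, 19.8, 14.8 and 36.3 CPM of library totals in propranolol tumours 1 to 4. The same sum in control tumours 1 to 4 was 17.2, 19.1, 49.1 and 1293 CPM. High values thus came from 1 tumour in each group, and no member had all 4 propranolol tumours below all 4 control tumours.

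**Figure D1:**
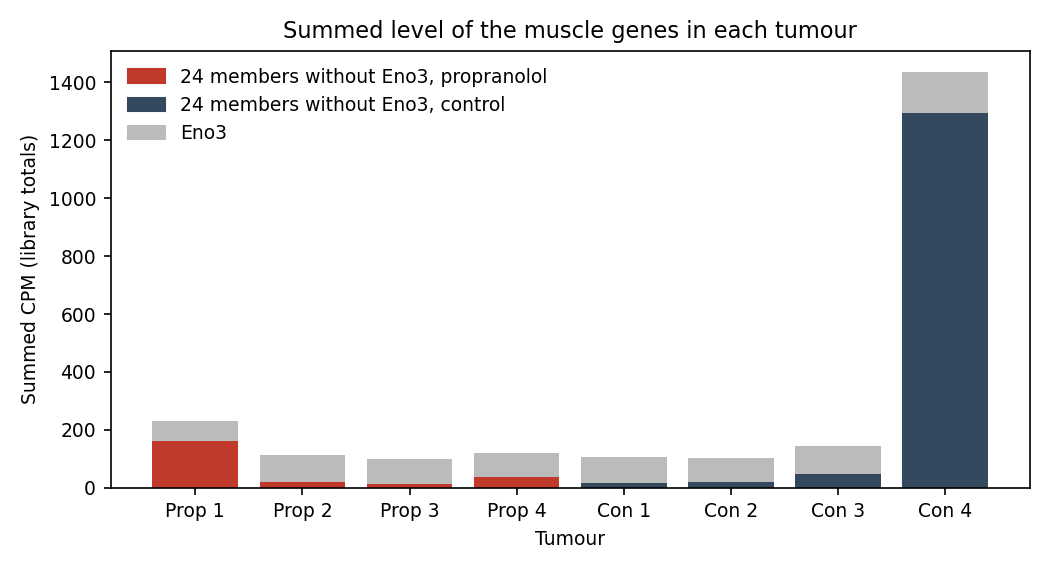
Summed CPM of the 25 members in each tumour, with propranolol tumours left and control tumours right. Coloured bars are the 24 members other than Eno3 and grey is Eno3; the coloured part reaches 161 CPM in propranolol tumour 1 and 1293 CPM in control tumour 4, against 14.8 to 49.1 CPM in the other 6 tumours.

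The same pattern can be read member by member. In propranolol tumour 1, 16 of the 25 members were at least 4 times the median of the other 7 tumours, and so were 1.09% of all genes. In control tumour 4, 24 of the 25 were, against 0.743% of all genes. Since the members were chosen on these levels, nothing is read from the difference to all genes. Eno3 was the exception in control tumour 4. The count was 4 in propranolol tumour 4, against 1.48% of all genes, and 8 in control tumour 3, against 0.219%. It was 1 in control tumour 2, against 0.106% of all genes, and 0 in the other 3 tumours. With the highest of the other 7 tumours in place of their median, 0 members were at least 4 times as high in propranolol tumour 1 and 20 in control tumour 4. The share of all genes by that measure was not determined, and nothing is read from these counts. Members above 1 FPKM numbered 12, 2, 3 and 4 in propranolol tumours 1 to 4, and 2, 3, 7 and 24 in control tumours 1 to 4. Each of the 25 had at least 1 count in propranolol tumours 1 and 4 and in control tumours 3 and 4, while 6 to 9 had 0 counts in each of the remaining 4 tumours.

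**Figure D2:**
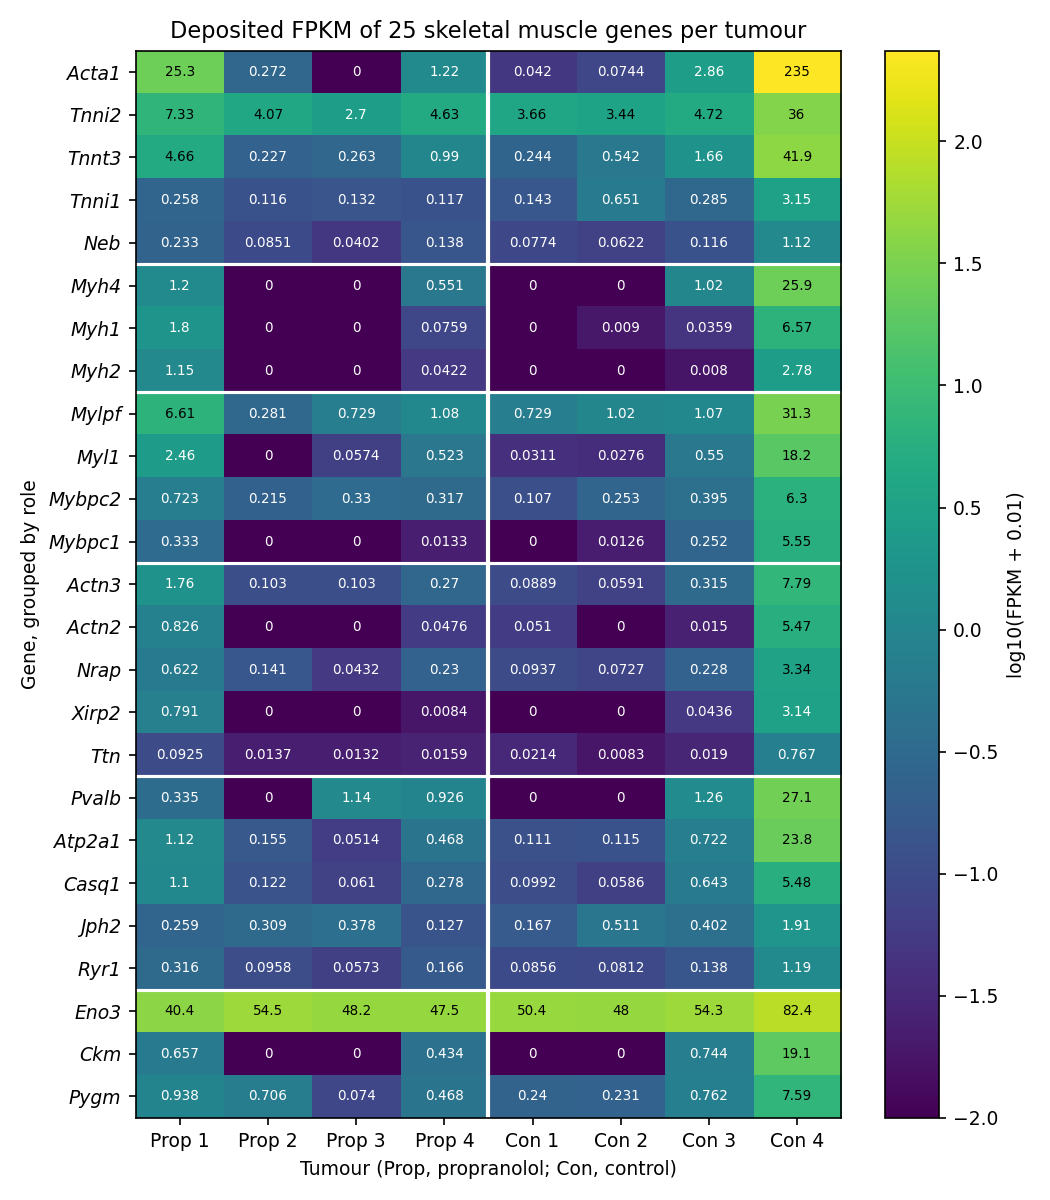
Deposited FPKM of the 25 members (rows, grouped by role from thin filament at the top to energy metabolism at the bottom) in the 8 tumours (columns, propranolol left of control), coloured by log10(FPKM + 0.01). Control tumour 4 is the brightest column for every row, propranolol tumour 1 is next for most rows, and the Eno3 row is bright throughout, at 40.4 to 82.4 FPKM.

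Among thin filament genes, Acta1, which encodes the alpha-actin of skeletal muscle, differed most between tumours in level. It had 670, 7, 0 and 31 counts in propranolol tumours 1 to 4, against 1, 2, 77 and 6241 counts in control tumours 1 to 4. The level per length was 25.3 FPKM in propranolol tumour 1 and 235 FPKM in control tumour 4, and at most 2.86 FPKM in the other 6. By FPKM, Acta1 had rank 2131 of 14133 genes in propranolol tumour 1, rank 168 in control tumour 4, rank 9402 in control tumour 3 and lower ranks still in the remaining 5. The gene lies on chromosome 8 at 124618508 to 124621490 (GRCm39, minus strand).

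The fast troponin genes were not equally restricted. Tnni2, fast troponin I, the subunit that blocks contraction at rest, had 189, 102, 68 and 115 counts in propranolol tumours 1 to 4, against 85, 90, 124 and 934 in control tumours 1 to 4. It was therefore present in all 8 tumours, at 2.70 to 4.72 FPKM in the 6 tumours other than propranolol tumour 1 (7.33 FPKM) and control tumour 4 (36.0 FPKM). Tnnt3, fast troponin T, the subunit that binds tropomyosin, had 127, 6, 7 and 26 counts in propranolol tumours 1 to 4, against 6, 15, 46 and 1149 in control tumours 1 to 4. Tnnt3 followed the order of Acta1 in its 4 highest tumours (control 4, propranolol 1, control 3 and propranolol 4).

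Slow troponin I, Tnni1, followed a different order. It had 16, 7, 8 and 7 counts in propranolol tumours 1 to 4, against 8, 41, 18 and 196 in control tumours 1 to 4. The second highest level was in control tumour 2, whose fast heavy chain count was 1. Tnni1 made up 7.80% of the troponin I counts in propranolol tumour 1 (interval 4.53% to 12.4%), against 31.3% in control tumour 2 (41 of 131, 23.5% to 40.0%) and 17.3% in control tumour 4 (15.2% to 19.7%). Tnni2 led Tnni1 in every tumour, per length as well, with Tnni2 at 84.1% to 97.5% of their summed FPKM. Neb, which encodes nebulin, the ruler of thin filament length, had 18 to 107 counts in propranolol tumours and 29 to 519 in control tumours.

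The 3 fast myosin heavy chain genes, neighbours on chromosome 11, were detected in 4 tumours apart from a single count. On the plus strand of GRCm39 Myh2 lies at 67061853 to 67088343, Myh1 at 67090878 to 67115401 and Myh4 at 67128855 to 67151272. Myh4 had 124, 0, 0 and 55 counts in propranolol tumours 1 to 4, against 0, 0, 108 and 2692 in control tumours 1 to 4. Myh1 had 197, 0, 0 and 8 counts in propranolol tumours 1 to 4, against 0, 1, 4 and 723 in control tumours 1 to 4. Myh2 had 142, 0, 0 and 5 counts in propranolol tumours 1 to 4, against 0, 0, 1 and 343 in control tumours 1 to 4. All 3 were highest in control tumour 4, but their proportions differed between tumours.

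The leading heavy chain gene of propranolol tumour 1 was not that of the other tumours. Myh4, the type IIb gene, made up 26.8% of the 463 heavy chain counts in propranolol tumour 1 (22.8% to 31.1%) and 80.9% of 68 in propranolol tumour 4 (69.5% to 89.4%). It made up 95.6% of 113 counts in control tumour 3 (90.0% to 98.5%) and 71.6% of 3758 in control tumour 4 (70.2% to 73.1%). Myh1 and Myh2 held 42.5% (38.0% to 47.2%) and 30.7% (26.5% to 35.1%) in propranolol tumour 1, and 19.2% (18% to 20.5%) and 9.13% (8.23% to 10.1%) in control tumour 4. Per length, the Myh4 share was 28.8% in propranolol tumour 1 and 73.4% in control tumour 4. The intervals of propranolol tumour 1 and of the other 3 tumours do not overlap for Myh4, but each is 1 library, so this compares tumours and not treatments.

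Reads may be split among these genes in ways the counts do not show. Of the 50-base windows of the longest coding GENCODE transcript of each gene, 26.7% of Myh1, 26.9% of Myh2 and 18.9% of Myh4 also occur in another gene, and of 100-base windows 9.73%, 9.17% and 3.85%. Myl1 shares 23.4% of 50-base windows and 9.36% of 100-base windows with the pseudogene Mylf-ps. For the 21 other members the share was at most 2.22%. The sources used here do not say how such reads were assigned. The Myh1, Myh2, Myh4 and Myl1 values, and the heavy chain shares, are therefore less certain than the values of the 21 other members.

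**Figure D3:**
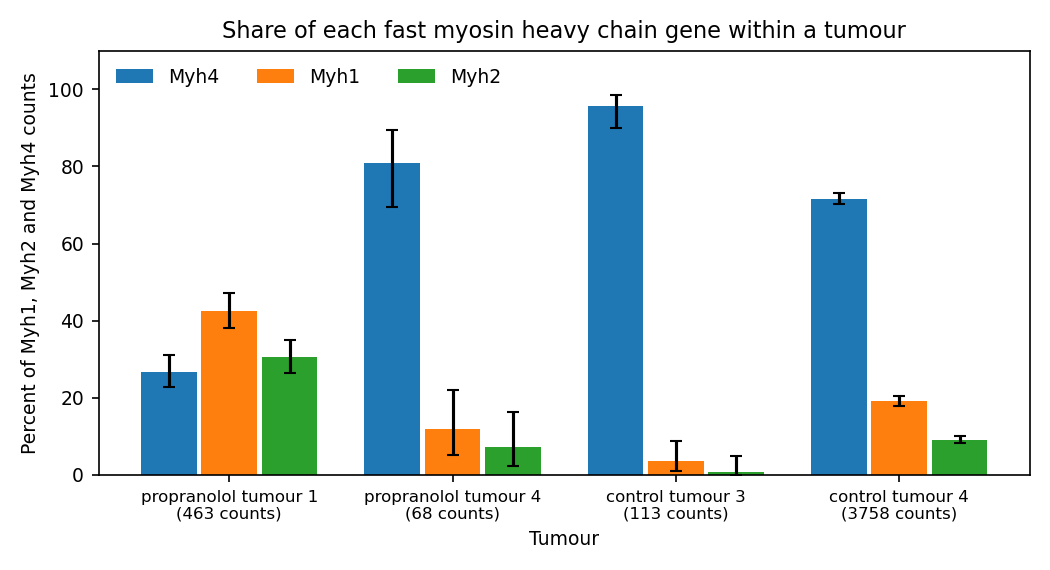
Percent of Myh4, Myh1 and Myh2 in their summed counts, for the 4 tumours with at least 68 heavy chain counts; bars are the shares and whiskers exact 95% binomial intervals of counting error. Myh1 is the tallest bar in propranolol tumour 1 (42.5%), and Myh4 in the other 3 tumours (71.6% to 95.6%).

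Light chain and myosin-binding genes of the thick filament also peaked in control tumour 4. Mylpf, the fast regulatory light chain, had 121, 5, 13 and 19 counts in propranolol tumours 1 to 4, against 12, 19, 20 and 576 in control tumours 1 to 4. Every tumour thus had some Mylpf, with 5 to 20 counts outside propranolol tumour 1 and control tumour 4. Myl1, the fast essential light chain, had 88, 0, 2 and 18 counts in propranolol tumours 1 to 4, against 1, 1, 20 and 654 in control tumours 1 to 4. Its 4 highest tumours were those with more than 1 heavy chain count.

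Myosin-binding protein C, which tunes the interaction of myosin with actin, has a slow gene, Mybpc1, and a fast gene, Mybpc2. Mybpc1 had 26, 0, 0 and 1 counts in propranolol tumours 1 to 4, against 0, 1, 20 and 435 in control tumours 1 to 4. Mybpc2 had 45, 13, 20 and 19 counts in propranolol tumours 1 to 4, against 6, 16, 25 and 394 in control tumours 1 to 4. The slow gene held 36.6% of their counts in propranolol tumour 1 (25.5% to 48.9%), against 52.5% in control tumour 4 (49.0% to 55.9%), 2 intervals that just fail to overlap. In control tumour 3 it held 44.4% (29.6% to 60.0%), which overlaps both. Fast-twitch fibres are known to express Mybpc1 as well, so its share is not a share of slow fibres.

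Among scaffold genes, Ttn, which encodes titin, the giant spring of the sarcomere, had 187, 27, 26 and 31 counts in propranolol tumours 1 to 4, against 39, 17, 39 and 1557 in control tumours 1 to 4. It was counted in every tumour, although per length it had the lowest mean level of the members, 0.119 FPKM. The Z-disc actin crosslinkers Actn3, of fast fibres, and Actn2, of all fibres, had 88 and 54 counts in propranolol tumour 1 and 391 and 359 in control tumour 4. Outside these 2 tumours Actn3 had 3 to 16 counts and Actn2 0 to 3. Xirp2, an actin-binding protein of muscle attachment sites, was close to all or none, with 196, 0, 0 and 2 counts in propranolol tumours 1 to 4, against 0, 0, 11 and 781 in control tumours 1 to 4. Nrap, a protein of myofibril assembly, had 59 counts in propranolol tumour 1, 318 in control tumour 4 and 4 to 22 elsewhere.

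Calcium-handling members differed in how far propranolol tumour 1 followed control tumour 4. Atp2a1, the calcium pump of fast muscle, had 67, 9, 3 and 27 counts in propranolol tumours 1 to 4, against 6, 7, 44 and 1434 in control tumours 1 to 4. Pvalb, which encodes the calcium buffer parvalbumin of fast fibres, had 6, 0, 20 and 16 counts in propranolol tumours 1 to 4, against 0, 0, 23 and 489 in control tumours 1 to 4. Propranolol tumour 1, second for most members, was thus below propranolol tumours 3 and 4 and control tumour 3 for Pvalb. Ryr1, the calcium release channel, had 119, 35, 21 and 60 counts in propranolol tumours 1 to 4, against 29, 31, 53 and 451 in control tumours 1 to 4. Casq1, the calcium store protein of fast fibres, had 37 counts in propranolol tumour 1, 185 in control tumour 4 and 2 to 22 elsewhere. Jph2, a junctophilin better known from heart, was spread more evenly, with 19, 22, 27 and 9 counts in propranolol tumours 1 to 4, against 11, 38, 30 and 141 in control tumours 1 to 4.

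In energy metabolism, Ckm, the muscle creatine kinase, had 33, 0, 0 and 21 counts in propranolol tumours 1 to 4, against 0, 0, 38 and 962 in control tumours 1 to 4. It was at 0 in the same 4 tumours as Myh4. Pygm, the muscle glycogen phosphorylase, had 52, 38, 4 and 25 counts in propranolol tumours 1 to 4, against 12, 13, 43 and 423 in control tumours 1 to 4. Eno3, the beta-enolase of glycolysis, stood apart with 1210, 1586, 1409 and 1371 counts in propranolol tumours 1 to 4, against 1359, 1460, 1655 and 2479 in control tumours 1 to 4. In propranolol tumour 1 its level, 68.3 CPM, was the lowest of all 8. In control tumour 4 it was 143 CPM, 1.46 times the next highest (control tumour 3, 97.5 CPM). Eno3 lies on chromosome 11 at 70548028 to 70553339 (GRCm39, plus strand).

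Propranolol tumour 1 did not hold a uniform fraction of the levels in control tumour 4. Its level was 13.2% of that in control tumour 4 at the median member, with a range of 1.20% to 47.9%. At the low end were Pvalb (1.20%, interval 0.440% to 2.64%), Ckm (3.37%, 2.30% to 4.76%), Myh4 (4.52%, 3.75% to 5.42%) and Atp2a1 (4.59%, 3.54% to 5.86%). Pvalb, Myh4 and Atp2a1 are genes of fast fibres, and Ckm is used by both fibre types. At the high end, below Eno3, were Myh2 (40.6%, 33.2% to 49.6%), Myh1 (26.8%, 22.7% to 31.4%) and Ryr1 (25.9%, 21% to 31.8%). Acta1 lay between, at 10.5% (9.72% to 11.4%). Slow Tnni1 (8.02%, 4.49% to 13.3%) and Mybpc1 (5.87%, 3.79% to 8.72%) were both below the median member, though the Tnni1 interval includes it. Fast members lay at both ends, and with 2 slow genes a split into fast and slow along this ratio cannot be judged. Tnni1, Jph2, Eno3, Pvalb and Ckm in propranolol tumour 1 did not exceed the highest of the other 6 tumours. The ratio includes any level present in every tumour.

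**Figure D4:**
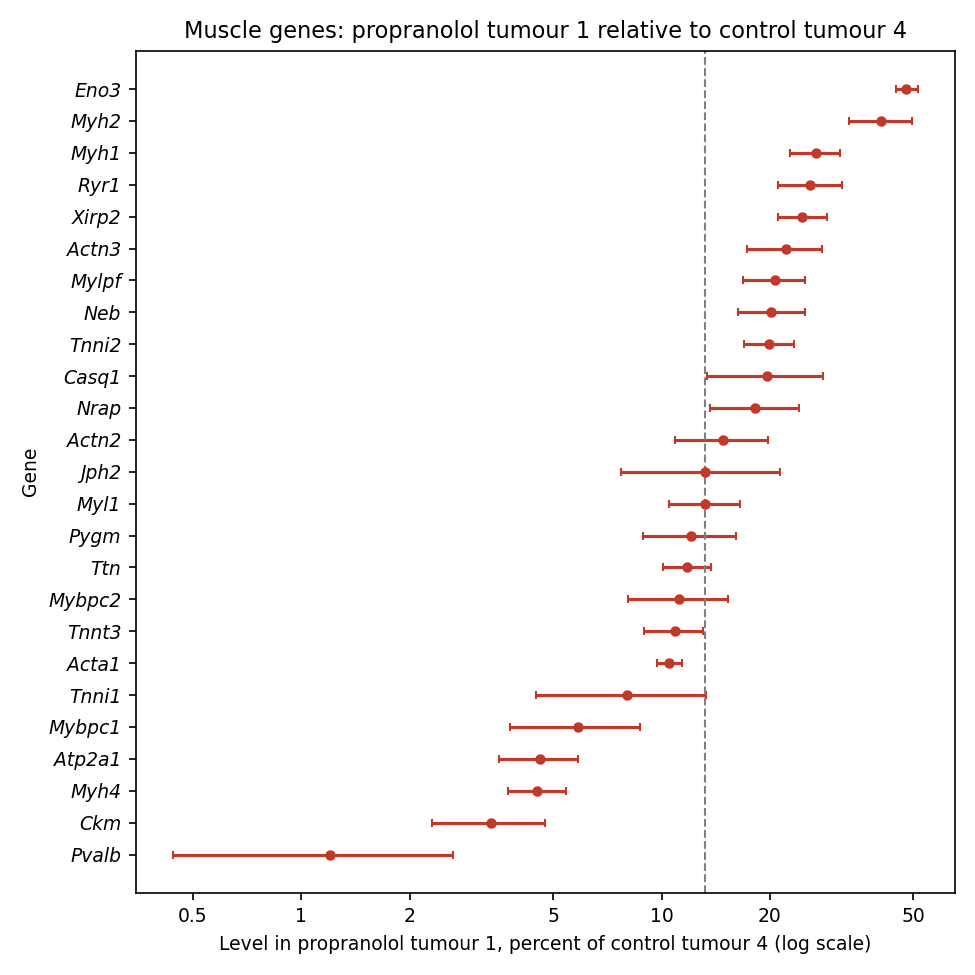
Level of each member in propranolol tumour 1 as a percent of its level in control tumour 4 (log axis); points are the ratio of TMM-scaled CPM and whiskers its exact 95% counting interval, and the dashed line is the median member, 13.2%. Pvalb, Ckm, Myh4 and Atp2a1 lie under 5%, and 8 members, from Neb up to Eno3, lie over 20%. The percent includes any level present in every tumour.

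Across the treatment groups, the fit to all genes by edgeR's quasi-likelihood test called 0 of 14006 genes at an adjusted p under 0.05 (0%), and DESeq2 called 0 of 14087 (0%). The smallest adjusted p was 0.999 with edgeR and 0.259 with DESeq2. At an unadjusted p under 0.05, edgeR counted 273 genes (1.95%) and DESeq2 337. Of the 25 members, 19 passed edgeR's filter on low counts, and Myh1, Myh2, Mybpc1, Actn2, Casq1 and Xirp2 did not. None of the 19 was called, and 1, Tnni1, had an unadjusted p under 0.05. The rule that picked the members used these tumours, so nothing is read from these counts.

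Of these 19, all had a lower fitted level in propranolol tumours, with a median log2 fold change of -2.15, while 50.6% of all tested genes were lower and their median was 0. The direction rests on 1 library. Without control tumour 4, 3 of the 19 (Tnni1, Jph2 and Eno3) were lower and 16 were higher, with a median of 0.52. Without propranolol tumour 1 all 19 were lower, with a median of -3.32. With both left out, 12 members were tested, of which 7 were lower and 5 higher, with a median of -0.01. With the tumour number as a replicate block, all 19 were lower with a median of -0.99, 717 genes had an unadjusted p under 0.05, and none of the members did.

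Standard errors were large beside the fold changes. Acta1 averaged 10 ± 18.5 CPM in propranolol tumours and 90.9 ± 179 CPM in control tumours (SD, n = 4 each), with a log2 fold change of -3.17 (SE 2.37), and 2.67 without control tumour 4. Ckm averaged 0.785 ± 0.937 CPM in propranolol tumours and 14.4 ± 27.3 CPM in control tumours, and its log2 fold change of -4.17 (SE 2.15) turned to 0.07 without control tumour 4. For Myh4 the means were 2.58 ± 3.34 CPM in propranolol tumours and 40.3 ± 76.4 CPM in control tumours, with -3.95 (SE 2.20), and 0.29 without that tumour. In both groups the SD exceeded the mean for these 3 genes. The adjusted p from edgeR's test was 0.999 for each of the 19.

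Tnni1, Jph2 and Eno3 kept their direction without control tumour 4. Tnni1 averaged 0.559 ± 0.232 CPM in propranolol tumours and 3.79 ± 5.04 CPM in control tumours, with a log2 fold change of -2.74 (SE 0.94). Its unadjusted p from edgeR was 0.018 and its adjusted p 0.999. Without control tumour 4 the change was -1.21 with an adjusted p of 0.999, and with the replicate block it was -1.99 with an unadjusted p of 0.072 in edgeR. Jph2 changed by -1.47 (SE 0.70) with all tumours and by -0.43 without control tumour 4. Eno3 averaged 83.0 ± 10.7 CPM in propranolol tumours and 102 ± 27.5 CPM in control tumours, with a log2 fold change of -0.30 (SE 0.18), and -0.10 without control tumour 4.

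**Figure D5:**
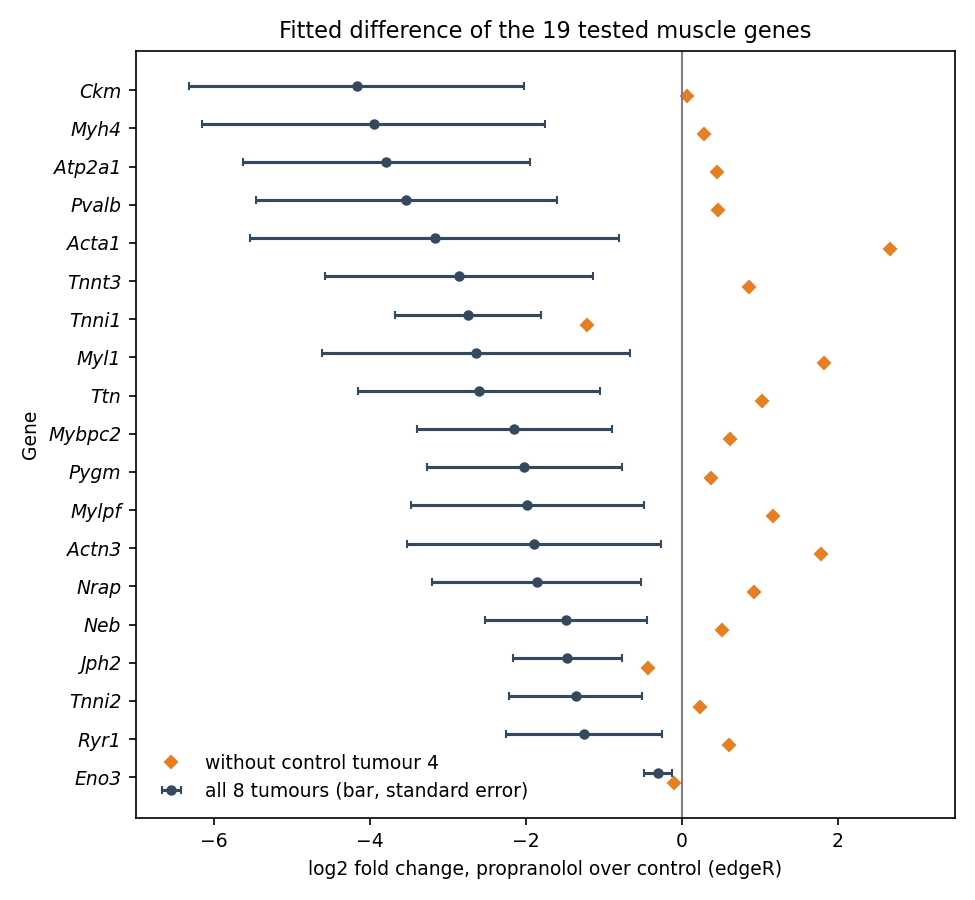
Fitted log2 fold change, propranolol over control, of the 19 tested members; circles with bars are the fit with all 8 tumours and its standard error, and diamonds the fit without control tumour 4. All circles lie below 0, whereas 16 of the 19 diamonds lie above 0, with Acta1 moving from -3.17 to 2.67.

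In the authors' deposited table all 25 members carry a negative log2 fold change, and Ckm has the most negative of all genes, -4.19. Members are 7 of the 10 and 12 of the 20 most negative genes in the authors' deposited table. That table gives a p-value of 1 to 46 genes, for which DESeq2 run here on the same counts gave no p-value. Of the 46, 21 are members (45.7%) and 42 were highest in control tumour 4. Only 4 members have a p-value under 1 in the authors' deposited table, namely Tnni1, Jph2, Eno3 and Casq1. Tnni1 (log2 fold change -2.76, p = 0.000771) and Jph2 (-1.48, p = 0.0305) are among the 17 genes that the authors' deposited table marks as down, both with an adjusted p of 1 after rounding.

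Other muscle genes, from a list drawn up with earlier results of these data known, followed the same tumours in part. Of 30 further sarcomere genes, 23 are in the table. In propranolol tumour 1, 11 of the 23 were at least 4 times the median of the other 7 tumours, against 1.09% of all genes. In control tumour 4 there were 16, against 0.743% of all genes, with 21 highest there. Genes in the table exceed 1 CPM in 2 or more libraries. Some, such as Csrp3, Xirp1 and Myom2, did so only in propranolol tumour 1 and control tumour 4. Their entry to the table thus fixed their high tumours, and nothing is read from these counts. Of the 13 tested, 0 were called, 11 were lower and 2 higher in propranolol tumours, with a median log2 fold change of -0.49. Of all tested genes 50.6% were lower. The direction of this list without control tumour 4 was not examined. Des, which encodes the intermediate filament desmin, had 558, 64, 109 and 67 counts in propranolol tumours 1 to 4, against 67, 87, 121 and 2372 in control tumours 1 to 4. Tnnc1, the slow and cardiac troponin C, had 17 to 36 counts in propranolol tumours and 19 to 164 in control tumours, with the top value again in control tumour 4.

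Of 14 myogenic and satellite cell factors, 6 are in the table, among them Mef2c, and 0 of the 6 were at least 4 times the median of the other 7 in control tumour 4. Of 6 genes of developing fibres 2 are in the table, and neither was at least 4 times that median. Myl4, the embryonic and atrial essential light chain, had 75, 28, 14 and 28 counts in propranolol tumours 1 to 4, against 27, 15, 10 and 67 in control tumours 1 to 4. Its 2 highest tumours were thus those of most members. Tnnt2, the cardiac and embryonic troponin T, had 43, 84, 300 and 64 counts in propranolol tumours 1 to 4, against 132, 135, 329 and 161 in control tumours 1 to 4, with its lowest value in propranolol tumour 1. Pax7, Myod1 and Myog are not analysed here. Among 8 further calcium and membrane genes 1 was at least 4 times the median of the other 7 in control tumour 4, and among 10 further metabolic genes 2 were. Of 3 genes of the neuromuscular junction, 0 were.

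Markers of other tissues were compared in the same tumours. The 5 erythroid genes in the table, of 7 listed, summed to 35.7 CPM in propranolol tumour 1 and 194 CPM in control tumour 4, against 25.4 to 87.6 CPM in the other 6 tumours, and each was highest in control tumour 4. Of the 6 tendon genes 2 are in the table, Thbs4 and Scx. Thbs4 had 114, 12, 14 and 10 counts in propranolol tumours 1 to 4, against 17, 4, 8 and 296 in control tumours 1 to 4. Scx was spread more evenly, with 55, 25, 30 and 24 counts in propranolol tumours 1 to 4, against 33, 51, 10 and 60 in control tumours 1 to 4. The 5 smooth muscle genes in the table, of 9 listed, summed to 117 to 181 CPM in propranolol tumours and 140 to 151 CPM in control tumours. The 4 adipocyte genes, of 11 listed, summed to 55.6 to 75.2 CPM in propranolol tumours and 55.3 to 72.2 CPM in control tumours. The 2 keratinocyte genes, of 9 listed, summed to 5.77 to 7.75 CPM in propranolol tumours and 4.60 to 8.90 CPM in control tumours. Adipoq and Krt14 are not analysed here. Krt8, an epithelial keratin of the carcinoma list, had 29, 38, 73 and 2 counts in propranolol tumours 1 to 4, against 13, 41, 17 and 244 in control tumours 1 to 4. Krt18, the other keratin of that list, had 102, 174, 328 and 102 counts in propranolol tumours 1 to 4, against 143, 258, 318 and 220 in control tumours 1 to 4. Krt18 and Cdh1 were highest in propranolol tumour 3, unlike Krt8. The part of the erythroid, tendon and keratin transcripts in the muscle result was not tested.

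The genes most like the members were sought by Pearson's r, over the 8 tumours, with the mean of the members' centred log2 CPM, and this is a description in which 2 tumours weigh heavily. The 15 non-members of highest r (0.932 to 0.990) include 5 of the sarcomere list, Csrp3 (0.990), Xirp1 (0.976), Myom2 (0.961), Des (0.948) and Ankrd2 (0.941). The other 10 are Eef1a2, Fhl1, Pdlim3, Telo2, Mrps12, Tuba4a, H19, Ranbp3, Samd1 and Hspb1. Some of the 15, such as Csrp3, Xirp1, Myom2 and Pdlim3, exceeded 1 CPM only in propranolol tumour 1 and control tumour 4. They could enter the table, which needs 2 libraries above 1 CPM, only through these tumours. Csrp3, a muscle LIM protein, had 34, 0, 0 and 1 counts in propranolol tumours 1 to 4, against 0, 0, 6 and 334 in control tumours 1 to 4. Fhl1, another LIM protein of muscle, had 69 counts in propranolol tumour 1, 888 in control tumour 4 and 3 to 11 in the other 6. The noncoding RNA H19 had 98, 6, 1 and 7 counts in propranolol tumours 1 to 4, against 13, 11, 16 and 567 in control tumours 1 to 4. Telo2, Mrps12, Ranbp3 and Samd1 followed the members only in small steps, such as 1959, 1815, 1750 and 1788 counts of Ranbp3 in propranolol tumours 1 to 4, against 1619, 1879, 1856 and 2167 in control tumours 1 to 4.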

How the data were processed

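Read counts per gene and FPKM values in 8 tumours were taken as deposited, per the file headers. The authors' log2 fold change, p-value and adjusted p-value are in the same deposited table. Tools listed in the submitters' processing notes are fastp 0.19.3, HISAT2 2.1.0, featureCounts 1.6.2, StringTie 1.3.4d, DESeq2 1.22.1, edgeR 3.24.3 and the build GRCm39, without the role of each. Whether counting used strand, and how shared reads were handled, the sources used here do not say. All genes in the table exceed 1 CPM in 2 or more libraries, and others are not analysed here.

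The deposited counts were fitted with edgeR's quasi-likelihood test (edgeR 4.0.16 in R 4.3.3) with TMM scaling, filterByExpr, robust dispersions and Benjamini-Hochberg adjustment at 0.05, over all genes. A standard error is the fold change divided by the root of F. CPM values use TMM-scaled library sizes unless library totals are named. Intervals of shares are exact Clopper-Pearson intervals at 95%, and those of a ratio between tumours follow from the split of its counts. The fit was tested on simulated data. Alternatives were DESeq2's Wald test (DESeq2 1.42.0), other scalings, no filter, a non-robust fit, a replicate block and leaving out tumours. Promoters came from a RefSeq table, and shared windows were counted in GENCODE release M 21 transcripts with Python 3.11.15.

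Members and lists were chosen with earlier results of these data known. Genes described in full were set by rule: the 3 members of highest mean FPKM, all heavy chain, troponin and regulatory light chain members, Atp2a1, Ckm, Ttn, Mb, Pvalb and Trim63. Non-members named are from the lists, the 15 genes most like the members, or the 5 of at least 5 CPM highest in a tumour relative to the median of the other 7. Further members were described after their values were seen.

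Both groups number their tumours 1 to 4. Deviations from the group means correlated over genes at r = 0.19 to 0.508 in the 4 same-number pairs, all over 0.1. No label says what a shared number stands for. The main fit therefore left the samples unpaired, and the replicate block was an alternative fit. Only 2 of 4 tumours per group correlated best with their own number, and propranolol tumour 1 correlated more with control tumour 4 (0.383) than with control tumour 1 (0.19). The block changed no call. No 2 libraries of a group were copies, since the smallest chi-square per degree of freedom over genes was 12.8.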

Additional observations from a re-analysis of the deposited data

Results flagged for a closer look

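In a group of 4 tumours, a tumour was marked when its gap to the nearest other tumour, divided by the range of the group, exceeded Dixon's 95% critical value. Chance marks about 1 in 20 groups if levels follow a normal distribution. The gaps were taken on CPM without a log, and the share of all genes marked was not determined. The members were chosen because these tumours stood out, so nothing is read from the number marked.

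In the propranolol group, propranolol tumour 1 was marked as the highest for 10 members. The gap was 0.950 of the range for Acta1, 0.956 for Myh1, 0.962 for Myh2, 0.869 for Mylpf and 0.894 for Actn3. It was 0.968 for Ttn, 0.839 for Tnni1, 0.959 for Mybpc1, 0.940 for Actn2 and 0.989 for Xirp2. For the summed level of the 25 members it was 0.847.

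In the control group, control tumour 4 was marked as the highest for 23 members. Among thin filament genes the gap was 0.988 of the range for Acta1, 0.965 for Tnnt3, 0.955 for Tnni2, 0.831 for Tnni1 and 0.946 for Neb. Among thick filament genes it was 0.959 for Myh4, 0.994 for Myh1, 0.997 for Myh2, 0.987 for Mylpf, 0.970 for Myl1, 0.953 for Mybpc1 and 0.951 for Mybpc2. The scaffold genes gave 0.983 for Ttn, 0.965 for Actn3, 0.991 for Actn2, 0.950 for Nrap and 0.986 for Xirp2. Calcium handling gave 0.973 for Atp2a1, 0.952 for Pvalb, 0.944 for Ryr1 and 0.888 for Casq1, and energy metabolism 0.960 for Ckm and 0.924 for Pygm. For the summed level it was 0.969. Jph2 and Eno3 were not marked in either group.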

How the results depend on the processing

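No setting called a gene, block and left-out tumours included, but counts at an unadjusted p under 0.05 ranged over 134 to 1017 genes when 1 tumour was left out, and the replicate block gave 717 against 273. When 1 tumour was left out, 3 to 22 members had a lower fitted level, the 3 without control tumour 4 and the 22 where more members passed the filter. Without control tumour 4 the log2 fold change of 16 members turned positive. Their ranges over the 8 single omissions, each with its top value without control tumour 4, were -6.88 to 2.67 for Acta1, -5.06 to 0.07 for Ckm, -5.17 to 0.29 for Myh4, -3.58 to 1.17 for Mylpf, -4.46 to 0.86 for Tnnt3, -4.57 to 1.82 for Myl1, -4.76 to 0.45 for Atp2a1, -4.07 to 0.47 for Pvalb, -1.67 to 0.23 for Tnni2, -3.66 to 1.79 for Actn3, -3.81 to 1.03 for Ttn, -1.96 to 0.52 for Neb, -1.80 to 0.61 for Ryr1, -2.59 to 0.62 for Mybpc2, -2.40 to 0.37 for Pygm and -2.73 to 0.93 for Nrap. With both tumours left out, 7 of 12 members were lower, and 5 turned positive, at 0.68 for Pvalb, 0.04 for Neb, 0.06 for Ryr1, 0.18 for Mybpc2 and 0.06 for Nrap. The summed level was 2.02 times the median of the other 7 tumours in propranolol tumour 1 and 12.5 times in control tumour 4. These became 1.67 and 9.94 with FPKM, and 8.13 and 65.3 without Eno3, the member of most counts. The Myh4 share in control tumour 4 was 73.4% by FPKM and 71.6% by counts. Against the highest of the other 7, 0 members instead of 16 were at least 4 times in propranolol tumour 1. The cause of these shifts was not tested beyond what leaving out a tumour shows. Scaling, the filter, DESeq2 and the non-robust fit kept every direction of the 19 members. Depth limits Myh1, Myh2, Mybpc1, Actn2 and Xirp2, which had 0 to 20 counts outside propranolol tumour 1 and control tumour 4.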

Other observations

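Members had the largest ratios to the median of the other 7 tumours in propranolol tumour 1, such as 91.4 for Acta1 and at least 62.4 for Xirp2. Outside the members and at 5 CPM or more, its 5 genes with the largest ratio were the granzymes Gzmf, Gzmg, Gzmd and Gzmc, proteases of cytotoxic lymphocytes, and Ido1, an enzyme of tryptophan breakdown, led by Gzmf at 16.1. Gzmc had 316, 27, 13 and 289 counts in propranolol tumours 1 to 4, against 6, 16, 32 and 367 in control tumours 1 to 4. It was thus high in control tumour 4 and propranolol tumour 4 as well. In control tumour 4 the 5 non-members chosen in the same way (Fhl1, Csrp3, Eef1a2, Pdlim3 and Ldb3) are all genes that muscle is known to use. These 5 exceeded 1 CPM only in propranolol tumour 1 and control tumour 4. Their entry to the table thus fixed their high tumours, and nothing is read from their being muscle genes. Fhl1 there was 138 times the median of the other 7. Csrp3 was at least 108 times and Pdlim3 at least 72.6 times that median, which was 0 counts and was set to 3 counts.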
